A study of Homo sapiens with 12 samples.

Results

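The vascular endothelial growth factor (VEGF) family was examined as 9 genes taken by name from a table of 56593 distinct gene symbols: the receptors KDR, FLT1 and FLT4, the coreceptors NRP1 and NRP2, and the ligands VEGFA, VEGFB, VEGFC and PGF. All 9 were listed, and 8 passed the filter on low values. VEGFC did not pass it and was not tested. Their RNA was read by RNA-seq in undifferentiated H1 cells, a human embryonic stem cell line, and in 3 populations sorted from H1 cultures on the way to blood cells. APLNR+ mesoderm cells were taken on day 2, after activin A and BMP4 in a chemically defined medium. From day 2 the cultures received 40 ng/ml VEGF and 50 ng/ml bFGF, and CD31+CD34+ hemogenic endothelial progenitors were taken on day 5 and CD43+ hematopoietic progenitors on day 8. Each population was represented by 3 libraries, 12 in all. The libraries of a population were separate samples by their labels, which do not say whether they came from separate cultures, so the p-values measure the spread between these libraries. All cells came from a single line, and the VEGF protein added to the cultures leaves no RNA in the measurement.

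VEGF ligands are secreted dimers that bind receptor tyrosine kinases on endothelial cells and their precursors. KDR (VEGFR2) carries most of the growth and migration signal of VEGFA, FLT1 (VEGFR1) binds VEGFA, VEGFB and PGF tightly with weak kinase activity and is known as a decoy, and FLT4 (VEGFR3) is the receptor of VEGFC in lymphatic and early vascular endothelium. Neuropilins hold VEGF ligands beside these receptors and also bind class 3 semaphorins. In mouse and human embryos KDR marks the mesoderm from which endothelium and blood arise.

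Levels are given in FPKM, which divides the fragments of a gene by its transcript length and by the library total, so different genes are compared per length. Differences are those of log2(FPKM + 1), where the added 1 makes changes of low genes look smaller. They come from limma with Benjamini-Hochberg adjustment over 14840 genes. A gene is said to have risen or fallen where it changed by 2-fold or more on that scale with an adjusted p below 0.05. Gene-level values do not separate splice forms, such as the soluble form of FLT1.

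Libraries varied within populations and in part between them. The FPKM of a library summed to between 567793 and 1564449, of which small RNA genes took 10.4% to 66.2%. That share was 57.0% to 58.6% in H1 and 15.4% to 20.0% in CD43+ libraries, so it differed between these populations. Within CD31+CD34+ libraries it ranged from 10.4% to 57.2%, and within APLNR+ libraries from 27.5% to 66.2%. Absolute depth is unknown. Relative depth was read from the most frequent ratio of low values (under 0.2 FPKM) between a library and CD43+ replicate 3. It ranged from 0.553 to 1.27 times that of CD43+ replicate 3, with replicate 1 the shallowest library of each population. EEF1A1, a housekeeping gene of translation, had a value of 0 in 6 of the libraries, so an exact 0 can be a failed estimate. These were replicates 2 and 3 of H1, APLNR+ and CD43+ cells. The genes of the sorted surface proteins matched the labels: APLNR averaged 0.528 FPKM in H1 and 383 in APLNR+ cells, PECAM1 (CD31) 0.0997 in APLNR+ and 55.2 in CD31+CD34+ cells, CD34 0.981 and 47.7, and SPN (CD43) 3.70 in CD31+CD34+ and 75.5 in CD43+ cells. APLNR averaged 403 FPKM in CD31+CD34+ cells as well. In CD43+ cells, 14 of 15 endothelial marker genes averaged at least 1 FPKM and their summed level was 574 to 706 FPKM per library, beside 1369 to 1548 in CD31+CD34+ cells. The endothelial sum was 27.8 to 40.3 FPKM in H1 and 35.8 to 46.0 in APLNR+ libraries. Of 14 hematopoietic marker genes, 10 averaged at least 1 FPKM in CD31+CD34+ cells (summed level 156 to 172 FPKM) and 13 in CD43+ cells (2621 to 3218).

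The promoters of KDR, FLT1 and NRP2 are shown because these genes rose together into CD31+CD34+ cells and fell together into CD43+ cells. RefSeq promoter entries (GRCh38.p14) were found for 6 of the 9 genes: KDR, FLT1, NRP2, VEGFB, VEGFC and PGF. Each sequence below is the 250 bases before the transcription start, 5′ to 3′ on the gene's strand, at chr4:55125596-55125845 (minus strand) for KDR, chr13:28495129-28495378 (minus strand) for FLT1 and chr2:205682251-205682500 (plus strand) for NRP2. Capitals mark GGAA or its complement TTCC, the core of the site bound by ETS factors, a family active in endothelium.
KDR: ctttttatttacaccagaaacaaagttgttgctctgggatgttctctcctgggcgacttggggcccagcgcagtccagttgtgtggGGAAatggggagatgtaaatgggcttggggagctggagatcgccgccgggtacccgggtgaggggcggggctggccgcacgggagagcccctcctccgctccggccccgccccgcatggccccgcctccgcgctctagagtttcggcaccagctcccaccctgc
FLT1: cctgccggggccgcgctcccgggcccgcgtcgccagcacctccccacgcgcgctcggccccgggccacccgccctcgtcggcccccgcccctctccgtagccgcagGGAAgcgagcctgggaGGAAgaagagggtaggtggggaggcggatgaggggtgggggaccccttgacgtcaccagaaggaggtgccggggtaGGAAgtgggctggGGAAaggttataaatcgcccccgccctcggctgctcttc
NRP2: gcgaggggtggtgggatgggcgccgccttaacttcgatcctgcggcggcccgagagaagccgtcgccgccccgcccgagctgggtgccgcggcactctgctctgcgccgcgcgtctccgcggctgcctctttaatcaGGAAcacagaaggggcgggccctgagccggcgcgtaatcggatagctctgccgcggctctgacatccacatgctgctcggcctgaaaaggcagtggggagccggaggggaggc

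FLT1 had 4 matches to the ETS core in this window, a number reached by 34.3% of 35116 promoters of the same length. KDR and NRP2 had 1 each, and 92.7% of promoters had at least 1. The GC box GGGCGG, searched on both strands like every motif here, matched 2 times in KDR and 3 times each in FLT1 and NRP2, and was present in 42.6% of all promoters. FLT1 was the one of the 6 genes with a TATAAA match, which 10.7% of promoters had. The longer ETS letters ACCGGAA, which contain GGAA, the GATA letters AGATAA, the hypoxia response letters ACGTG and the SOX letters ACAATG had no match in any of these windows, and the shares of all promoters with a match were 3.04%, 9.17%, 18.5% and 9.29%. The E-box letters CANNTG matched once each in KDR and NRP2 and not in FLT1, against 61.8% of promoters with a match. A match is a string of letters, and binding was not measured.

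From H1 to APLNR+ cells, KDR, both neuropilins, VEGFB and PGF rose, and no member fell. These 5 of the 8 tested members compare with 15.9% of all genes called at this step, 8.3% raised and 7.62% lowered. Libraries did not overlap for 8 of 8 members, against 66% of all genes. Scaling to the FPKM sum without small RNA genes gave 1529 genes raised and 789 lowered at this step in place of 1232 and 1131, with no change in the members called. Markers of other cell types moved at this step as well: 10 endoderm markers summed to 11.03 to 12.5 FPKM per library in H1 and 2195 to 2328 in APLNR+ cells (4 of 10 at 1 FPKM or more), 14 mesenchymal and smooth muscle markers to 240.0 to 271 and 574 to 724, and 10 mesoderm markers, APLNR included, to 1.57 to 1.76 and 651 to 700.5. Their part in the rise of the members was not tested. From APLNR+ to CD31+CD34+ cells all 3 receptors and both neuropilins rose and no ligand was called. That is 5 of 8 beside 29.6% of all genes called, 12.5% raised and 17.1% lowered, and 6 of 8 members did not overlap beside 75.7% of all genes. In CD31+CD34+ libraries the endoderm sum was 76.3 to 80.7 FPKM, the mesoderm sum 427 to 478 and the mesenchymal sum 788 to 879. APLNR alone averaged 383 FPKM of the mesoderm sum in APLNR+ cells, where it was the sorting antigen, and 403 in CD31+CD34+ cells. The mesoderm sum therefore mainly follows this gene. From CD31+CD34+ to CD43+ cells the same 5 genes fell, as did PGF. That is 6 of 8 beside 14.4% of all genes called, 5.58% raised and 8.79% lowered, and 7 of 8 members did not overlap beside 58% of all genes. In CD43+ libraries the mesenchymal sum was 231 to 307 FPKM, the mesoderm sum 27.9 to 32.5 and the endoderm sum 31.8 to 36.0. These sums were below those of CD31+CD34+ cells. APLNR, which averaged 403 FPKM in CD31+CD34+ and 23.7 in CD43+ cells, made up most of the mesoderm difference. SOX17, an endoderm marker that is also in the endothelial list, averaged 24.2 and 1.40 FPKM. The mesenchymal list shares no gene with the endothelial one. The part of these markers' cells in the fall of the members was not tested. KDR, FLT1, FLT4, NRP1 and NRP2 were thus raised into CD31+CD34+ cells and lowered out of them, a pattern of 2.74% of all genes tested (407 of 14840). The median log2 change of the members was 1.11, 1.53 and -1.28 at the 3 steps, beside -0.12, -0.01 and -0.00 over all genes tested.

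**Figure D1:**
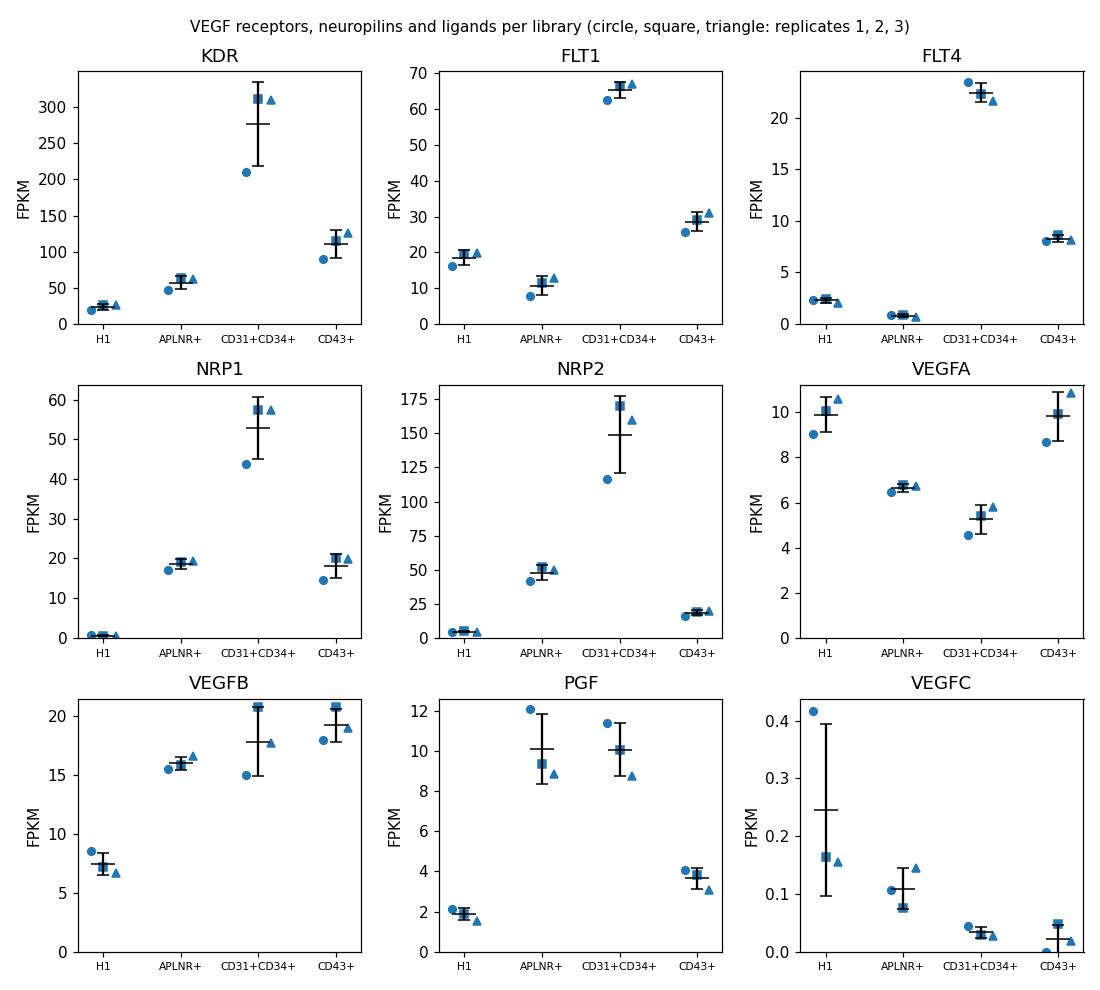
FPKM of each gene (y axis, linear from 0, own range per panel) in the 4 populations (x axis), with 1 point per library and the mean and SD of 3 libraries as bars (the VEGFC bars are drawn from 0 upward). KDR, FLT1, FLT4, NRP1 and NRP2 are highest in CD31+CD34+ cells, PGF is near 10.1 in both APLNR+ and CD31+CD34+ cells, and VEGFC stays under 0.42 FPKM in every library.

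KDR was the most abundant receptor in all 4 populations. Its level was 19.3, 26.7 and 26.4 FPKM in H1 replicates 1, 2 and 3, then 46.6, 63.7 and 61.7 in APLNR+ cells. It reached 209.9, 310.3 and 309 FPKM in CD31+CD34+ libraries, and those of CD43+ cells had 89.6, 115 and 126. No library of one population overlapped those of another. KDR rose 2.37-fold from H1 to APLNR+ cells (log2 change 1.22 ± 0.19, SE, limma adjusted p = 0.000196) and 4.82-fold into CD31+CD34+ cells (2.24 ± 0.19, adjusted p = 6.4e-07). It then fell 2.50-fold into CD43+ cells (-1.31 ± 0.19, adjusted p = 0.000124). The CD43+ level remained above that of APLNR+ cells by 0.93 on the log2 scale (adjusted p = 0.00086), short of 2-fold. Without APLNR+ replicate 2 or CD43+ replicate 1 that difference passed 2-fold, at 1.01 and 1.08. Replicate 1 was the lowest KDR library in every population, at 72.5%, 74.4%, 67.7% and 74.1% of the mean of replicates 2 and 3 in the order of differentiation. It was lowest throughout for KDR, FLT1 and VEGFA, 3 of the 8 tested members, beside 18.7% of all genes. The part of depth in this was not tested.

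FLT1 was lowest in APLNR+ cells. It stood at 16.1, 19.7 and 19.7 FPKM in H1 and at 7.72, 11.5 and 12.8 in the APLNR+ libraries. CD31+CD34+ cells had 62.6, 66.5 and 67.0 FPKM, and CD43+ cells 25.7, 29.1 and 31.0. Again no populations overlapped. The difference from H1 to APLNR+ cells was -0.76 ± 0.15 (limma adjusted p = 0.0011) and did not reach 2-fold. FLT1 rose 6.12-fold into CD31+CD34+ cells (2.53 ± 0.15, adjusted p = 3.08e-08) and fell 2.28-fold into CD43+ cells (-1.17 ± 0.15, adjusted p = 4.61e-05). At the first step KDR and FLT1 thus moved in opposite directions. The mean log2 ratio of KDR to FLT1 went from 0.36 in H1 to 2.33 in APLNR+ cells, with no overlap of libraries (exact two-sided permutation p = 0.1, the smallest that 3 against 3 libraries can give), and was 2.04 and 1.90 in the later populations.

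FLT4 was the scarcest receptor and had the largest rise of the 3 from APLNR+ to CD31+CD34+ cells. H1 libraries had 2.38, 2.45 and 2.03 FPKM and APLNR+ libraries 0.857, 0.913 and 0.689. FLT4 reached 23.4, 22.3 and 21.6 FPKM in CD31+CD34+ cells, against 8.03, 8.67 and 8.12 in the CD43+ libraries. All 4 populations were apart. The rise from APLNR+ to CD31+CD34+ cells was 27.4-fold (log2 change 3.69 ± 0.09, limma adjusted p = 2.2e-11), and FLT4 fell 2.71-fold into CD43+ cells (-1.34 ± 0.09, adjusted p = 1.55e-07). The H1 to APLNR+ difference was -0.85 ± 0.09 (adjusted p = 7.06e-06), under 2-fold on this scale. With a pseudocount of 0.1 FPKM in place of 1 it was -1.38 and past 2-fold. Unlike KDR and FLT1, FLT4 was lowest in replicate 1 only in CD43+ cells. Replicate 1 held 95.7% to 107% of the mean of replicates 2 and 3.

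Summed over the 3 receptors, the level was 44.9 ± 6.24 FPKM in H1, 68.8 ± 11.8 at the APLNR+ stage, 364 ± 59.2 at the CD31+CD34+ stage and 147 ± 21.7 at the CD43+ stage (SD, n = 3). KDR made up 53.5% of that sum in H1 and 83.4% in APLNR+ cells, and FLT1 41.3% and 15.4%. The make-up differed less between the CD31+CD34+ and CD43+ stages, with KDR at 75.5% and 74.8%, FLT1 at 18.2% and 19.5% and FLT4 at 6.31% and 5.69%. The change in KDR's share between those populations was -0.69 percentage points (exact permutation p = 0.8, adjusted over 24 share tests p = 0.835), and the libraries overlapped. Leaving out 1 library moved that value between -2.96 (without CD31+CD34+ replicate 1) and 0.456 (without CD31+CD34+ replicate 2), so its sign is not settled. The libraries did not overlap for the H1 to APLNR+ changes of all 3 receptors' shares, each with the smallest possible exact p of 0.1 (adjusted p = 0.15).

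The neuropilins showed the largest rise of the family at the first step. NRP1 was under 1 FPKM in H1, at 0.626, 0.400 and 0.576 FPKM, and stood at 17.1, 19.1 and 19.4 in APLNR+ cells. CD31+CD34+ libraries held 43.7, 57.4 and 57.4 FPKM and CD43+ libraries 14.6, 20.004 and 19.8. The APLNR+ and CD43+ libraries overlapped, and their difference was -0.04 (95% interval -0.35 to 0.26, limma adjusted p = 0.792). NRP1 rose 34.8-fold from H1 (3.67 ± 0.14, adjusted p = 6.15e-10) and 2.85-fold into CD31+CD34+ cells (1.45 ± 0.14, adjusted p = 1.56e-06), and fell 2.91-fold into CD43+ cells (-1.49 ± 0.14, adjusted p = 2.48e-06).

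NRP2 was higher than NRP1 until the last step. Its level was 4.31, 4.98 and 4.26 FPKM in H1 and 41.7, 51.9 and 50.2 at the APLNR+ stage. It was highest at the CD31+CD34+ stage, with 116.9, 169.9 and 160.0 FPKM, before 16.2, 18.9 and 19.8 at the CD43+ stage. No populations overlapped. NRP2 rose 10.6-fold (log2 change 3.15 ± 0.14, limma adjusted p = 2.9e-09) and then 3.11-fold (1.60 ± 0.14, adjusted p = 8.12e-07), and fell 8.13-fold into CD43+ cells (-2.94 ± 0.14, adjusted p = 8.42e-09). Among the receptors and coreceptors it alone was called lower in CD43+ than in APLNR+ cells (-1.34, adjusted p = 3.26e-06). The pair therefore changed its balance: NRP1 held 10.7%, 28.0%, 26.3% and 49.6% of their summed FPKM in H1 and the 3 populations in the order of differentiation. The last change, 23.3 percentage points, separated all libraries (exact permutation p = 0.1, the smallest possible, adjusted p = 0.15). The summed neuropilin level was 5.05, 66.5, 202 and 36.5 FPKM in the same order.

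**Figure D2:**
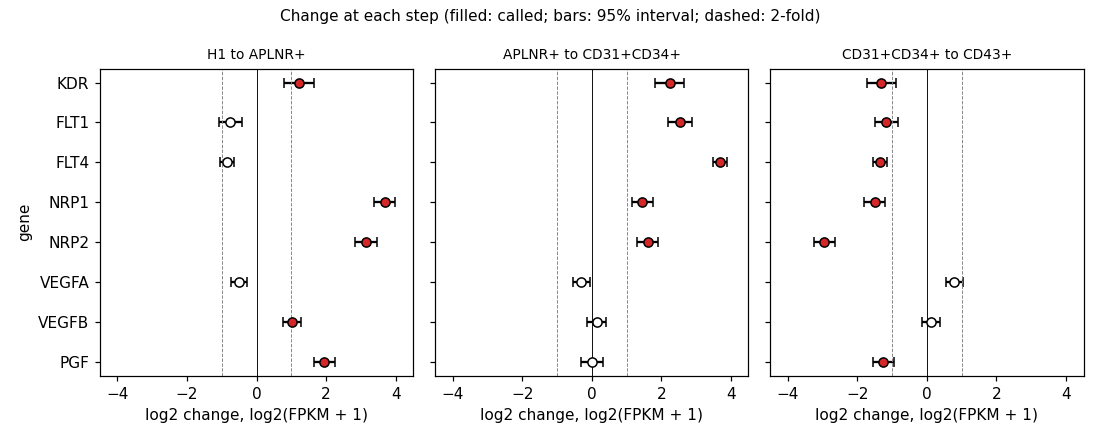
Log2 change of the 8 tested genes (y axis) at each of the 3 steps (x axis, log2(FPKM + 1) scale), with 95% intervals from limma, filled where called and dashed at 2-fold. The neuropilins lead the first step (3.67 and 3.15), FLT4 the second (3.69), and NRP2 has the largest fall at the third (-2.94).

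The summed ligand level varied less than that of the receptors or neuropilins. It was 19.5 ± 0.61 FPKM in H1 and 32.8 ± 1.12, 33.2 ± 2.74 and 32.7 ± 1.90 in the 3 sorted populations (SD, n = 3). VEGFA, the main ligand of KDR, was 9.05, 10.1 and 10.6 FPKM in H1 and 6.45, 6.80 and 6.71 at the APLNR+ stage. CD31+CD34+ libraries held 4.56, 5.40 and 5.82 FPKM and CD43+ libraries 8.68, 9.90 and 10.9. Its lowest values were thus in the population with the highest KDR. No change of VEGFA reached 2-fold: -0.51 ± 0.11 at the first step (limma adjusted p = 0.00157), -0.30 ± 0.11 at the second (adjusted p = 0.026) and 0.79 ± 0.11 at the third (adjusted p = 6.37e-05). H1 and CD43+ libraries overlapped, with a difference of -0.01 (95% interval -0.25 to 0.22, adjusted p = 0.92).

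VEGFB, a ligand of FLT1, was 8.53, 7.15 and 6.70 FPKM in H1 and 15.5, 15.9 and 16.6 at the APLNR+ stage. It had 15.0, 20.8 and 17.7 FPKM at the CD31+CD34+ stage, followed by 17.9, 20.7 and 19.0. The 3 sorted populations were close together, and each was apart from H1. VEGFB rose 2.14-fold from H1 to APLNR+ cells (log2 change 1.01 ± 0.12, limma adjusted p = 1.85e-05), at the edge of the 2-fold limit. Without H1 replicate 2, H1 replicate 3 or APLNR+ replicate 3 the change was 0.98, 0.94 and 0.98 and no longer called. The later differences were 0.14 (95% interval -0.12 to 0.40, adjusted p = 0.313) and 0.11 (95% interval -0.15 to 0.37, adjusted p = 0.458).

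PGF, placental growth factor, which binds FLT1 and not KDR, was 2.15, 1.90 and 1.55 FPKM in H1 and 12.1, 9.34 and 8.84 at the APLNR+ stage. CD31+CD34+ libraries held 11.4, 10.04 and 8.74 FPKM and CD43+ libraries 4.08, 3.82 and 3.06. The APLNR+ and CD31+CD34+ libraries overlapped. PGF rose 5.40-fold at the first step (log2 change 1.94 ± 0.14, limma adjusted p = 2.37e-07), differed by 0.00 at the second (95% interval -0.31 to 0.31, adjusted p = 0.998) and fell 2.75-fold at the third (-1.25 ± 0.14, adjusted p = 1.44e-05). PGF was highest in replicate 1 of all 4 populations, an order shared by 4.08% of all genes.

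VEGFC, the ligand of FLT4, was near or at 0 throughout. H1 libraries had 0.418, 0.164 and 0.156 FPKM and APLNR+ libraries 0.108, 0.0751 and 0.145. The CD31+CD34+ libraries had 0.0447, 0.0291 and 0.0276 FPKM, and those of CD43+ cells 0, 0.0474 and 0.0185. VEGFD, the other FLT4 ligand, was at most 0.161 FPKM in any library. Neither passed the filter, and no change was tested.

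**Figure D3:**
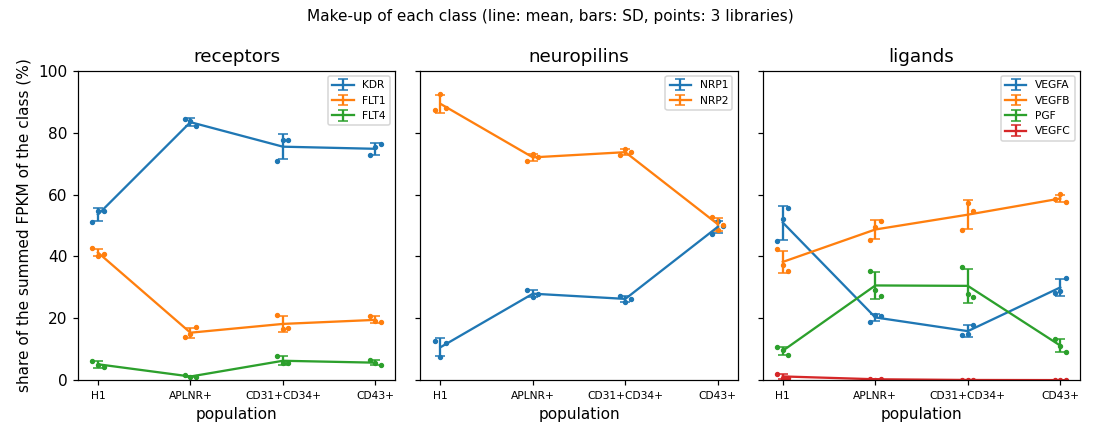
Share of each gene (y axis, percent) in the summed FPKM of its class in the 4 populations (x axis), as mean and SD with 1 point per library. KDR goes from 53.5% to 83.4% of the receptors at the first step, NRP1 from 26.3% to 49.6% of the neuropilins at the last, and VEGFA from 50.9% to 15.9% of the ligands by CD31+CD34+ cells.

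VEGFA held 50.9%, 20.3%, 15.9% and 30.0% of the summed ligand FPKM in H1 and the 3 populations in the order of differentiation. VEGFB held 38.3%, 48.7%, 53.5% and 58.7%, and PGF 9.57%, 30.6%, 30.5% and 11.2%. H1 was therefore the population in which VEGFA was the leading ligand on average, and VEGFB led in the other 3. VEGFA's share differed without overlap at each of the 3 steps, by -30.6, -4.43 and 14.1 percentage points (exact permutation p = 0.1 each, the smallest possible, adjusted p = 0.15).

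Between populations that do not follow each other, FLT4, KDR, VEGFB, NRP1 and NRP2 were higher in CD43+ cells than in H1. That is 5 of 8 members beside 37.1% of all genes called, 14.6% raised and 22.5% lowered, and 7 of 8 did not overlap beside 76.3% of all genes. FLT4 was 3.62-fold and NRP1 34.0-fold above H1. CD31+CD34+ cells had 7 of 8 members above H1 and none below, VEGFA being the exception at -0.80 (limma adjusted p = 2.12e-05). The background there was 40.1% called, 16.9% raised and 23.2% lowered, and 8 of 8 members did not overlap beside 79% of all genes. Against APLNR+ cells, CD43+ cells had more FLT1 (1.37) and FLT4 (2.35) and less PGF (-1.25) and NRP2 (-1.34) on the log2 scale, 4 of 8 members beside 33.6% of all genes called, 14.1% raised and 19.4% lowered. Here 7 of 8 did not overlap beside 75.4% of all genes. These comparisons share libraries with those of the 3 steps. For sorted cells in bulk, a smaller fraction of cells with a transcript and less of it per cell cannot be told apart. The receptor levels of CD43+ cells lay beside the endothelial marker sum given above, and the part of residual endothelial cells in them was not tested.

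Ordered by level, CD31+CD34+ cells came first for KDR, FLT1, FLT4, NRP1 and NRP2. CD43+ cells were the next for each of the 3 receptors, and APLNR+ cells for both neuropilins. In these orders, neighbours short of a call were CD43+ and APLNR+ cells for KDR and NRP1, CD43+ cells and H1 for FLT1 (0.60, limma adjusted p = 0.00329), and H1 and APLNR+ cells for FLT1 and FLT4. For VEGFA the order was H1, CD43+, APLNR+ and CD31+CD34+ cells, with no neighbours called. For VEGFB the CD31+CD34+ libraries overlapped those of both other sorted populations. The APLNR+ libraries were all below those of CD43+ cells, by 0.25 on the log2 scale, short of 2-fold. For PGF APLNR+ and CD31+CD34+ cells shared the top, with CD43+ cells next and not called against H1 (0.70, limma adjusted p = 0.000722).

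The genes most like each member by Pearson correlation of log2(FPKM + 1) over the 12 libraries were picked from 9801 genes. The libraries share 4 populations, so r mainly describes the 4 means. FLT4 was followed most closely by RASIP1 (r = 0.998), TEK (0.993), the angiopoietin receptor, and CCM2L (0.993). TEK averaged 6.75, 4.14, 53.5 and 22.6 FPKM in the order of differentiation. FLT1 was nearest to SPRY1 (0.988), an inhibitor of receptor tyrosine kinase signalling, at 10.7, 5.71, 44.2 and 19.0 FPKM, then RELL1 (0.980) and NPR1 (0.976). KDR was nearest to ST3GAL1 (0.996), P3H1 (0.994) and ZNF792 (0.991).

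For the neuropilins the nearest were genes of matrix and adhesion among others: HAPLN1 (0.998), CSRNP1 (0.997) and ITGA9 (0.996) for NRP1, and P4HA2 (0.994), MMP2 (0.993) and COL4A6 (0.991) for NRP2. HAPLN1, a link protein of hyaluronan matrix, averaged 1.87 FPKM in H1 and 905 in CD31+CD34+ cells. PGF was nearest to SOX17 (0.987), a transcription factor of endoderm and arterial endothelium, HLX (0.984) and FLNC (0.982). VEGFA was nearest to TOMM5 (0.984), OSGEPL1 (0.983) and CPVL (0.983), and VEGFB to EFS (0.985), KEL (0.982) and TOM1L2 (0.978).

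Genes that work with the family were counted from lists that leave its members out. The shares of all tested genes to read these counts against were 8.3% raised and 7.62% lowered at the first step, 12.5% and 17.1% at the second, and 5.58% and 8.79% at the third. Of 25 receptor partners and regulators, 4 rose and 1 fell from H1 to APLNR+ cells, 8 rose and 3 fell into CD31+CD34+ cells, and 2 rose and 9 fell into CD43+ cells. The share that fell at the second step, 12%, was below that of all genes, and the share that fell at the third was 36.0%. The median log2 change of the list was -0.01, 0.37 and -0.58. ITGA5, the alpha subunit of the fibronectin receptor, rose from 6.46 ± 0.63 to 70.1 ± 4.13 FPKM at the first step (SD, n = 3). CDH5, the VE-cadherin of endothelial junctions that binds KDR, rose from 0.0591 ± 0.0403 to 96.8 ± 15.6 FPKM at the second, where SYNJ2BP fell from 10.5 to 3.74. ITGB3, the beta subunit of the vitronectin and platelet integrins, rose from 0.674 to 96.1 FPKM into CD43+ cells, and SPRY4, a feedback inhibitor, fell from 27.9 to 4.16. CDH5, PECAM1, TEK and TIE1 of this list are also among the endothelial markers, and ITGB3 is among the hematopoietic markers. PECAM1 (CD31) is also an antigen of the sort, so its rise into CD31+CD34+ cells was fixed in advance by the sorting.

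Of 40 signal transducers, 39 were tested. At the 3 steps 5 rose and 3 fell, 11 rose and 5 fell, and 3 rose and 6 fell, with list medians of 0.14, 0.32 and -0.28. The shares that fell at the first and second steps, 7.69% and 12.8%, were near or below those of all genes, while 28.2% rose at the second. ELMO1, which activates RAC, rose from 4.12 to 33.8 FPKM at the first step and PPP3CA, a calcineurin catalytic subunit, fell from 19.1 to 5.95. RASIP1, an adaptor of endothelial tube formation, rose from 0.560 ± 0.0902 to 50.8 ± 1.51 FPKM at the second step (log2 change 5.05, limma adjusted p = 3.31e-12), and PIK3R1, the regulatory subunit of PI3-kinase, fell from 10.1 to 3.28. NOS3, endothelial nitric oxide synthase, fell from 40.7 ± 2.86 to 6.41 ± 0.78 FPKM into CD43+ cells (-2.50, adjusted p = 2.22e-08). PRKCB, a protein kinase C, rose there from 2.75 to 19.4.

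Many class 3 semaphorins share the neuropilins with VEGF ligands. They were listed with plexins, the B and C types included, so not every gene of the list is tied to a neuropilin. Of 15 tested (16 listed), 4 rose and 1 fell at the first step, 2 rose and 3 fell at the second, and 0 rose and 6 fell at the third. The list medians were 0.56, 0.40 and -0.94. PLXNA2 rose from 0.335 ± 0.167 to 59.3 ± 5.83 FPKM as NRP1 and NRP2 rose, while SEMA3A, a ligand of NRP1, fell from 37.9 to 10.8. PLXND1, the endothelial semaphorin receptor, rose from 23.1 ± 1.46 to 317 ± 49.1 FPKM into CD31+CD34+ cells, where KDR averaged 277, and SEMA3C fell from 22.7 to 2.15. PLXNA1 fell from 22.2 to 5.29 FPKM into CD43+ cells. Of 6 tested genes for processing of VEGFC, 2 rose and 1 fell, 1 rose, and 2 fell at the 3 steps. ADAMTS3, the protease that cleaves pro-VEGFC, rose from 1.24 to 8.64 FPKM at the first step, and FURIN, a proprotein convertase, rose from 14.6 to 74.8 and then fell to 36.6, while VEGFC itself was near 0.

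Genes known to be induced by VEGF in endothelial cells rose in 28.6%, 57.1% and 19.0% of those tested at the 3 steps. All genes rose in 8.3%, 12.5% and 5.58%. The shares of the list that fell were 4.76%, 14.3% and 42.9%, beside 7.62%, 17.1% and 8.79% of all genes. Of 21 tested (27 listed), 6 rose and 1 fell at the first step, 12 rose and 3 fell at the second, and 4 rose and 9 fell at the third, with list medians of 0.23, 1.11 and -0.50. HLX rose from 0.138 to 12.9 FPKM and DUSP6, a phosphatase of ERK, fell from 103 ± 3.34 to 29.7 ± 1.98 at the first step, before VEGF was added. At the second step the sorted population, the day and the added factors changed together, so their parts cannot be told apart. Those factors were activin A and BMP4 before day 2 and VEGF and bFGF after it. PLVAP, a component of endothelial diaphragms, rose from 0.0919 ± 0.155 to 220.1 ± 37.6 FPKM at that step, and EGR1 fell from 10.3 to 3.16. APLN, the ligand of APLNR, fell from 24.2 ± 2.17 to 0.164 ± 0.0539 FPKM at the third (log2 change -4.44, limma adjusted p = 5.96e-12), and KCNE3 rose from 5.63 to 22.2.

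Of 28 tested genes of the hypoxia pathway (30 listed), which is known to drive VEGFA transcription, 4 rose and 1 fell, 4 rose and 3 fell, and 1 rose and 5 fell. At the second step 14.3% rose and 10.7% fell, near or below the shares of all genes. At the first step 14.3% rose beside 8.3% of all genes, and 3.57% fell beside 7.62%. At the third 17.9% fell beside 8.79% of all genes, and 3.57% rose beside 5.58%. The list medians, 0.04, 0.36 and -0.14, lay nearer to those of all genes than the medians of the VEGF-induced list. EGLN3, a prolyl hydroxylase of HIF, rose from 6.68 to 70.9 FPKM at the first step and fell to 13.0 at the second, and ADM, adrenomedullin, fell from 47.0 to 19.8 at the first. ANGPTL4 rose from 0.759 to 8.42 FPKM into CD31+CD34+ cells, while BNIP3 rose from 7.57 to 19.98 and NDRG1 fell from 12.4 to 1.89 into CD43+ cells.

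**Figure D4:**
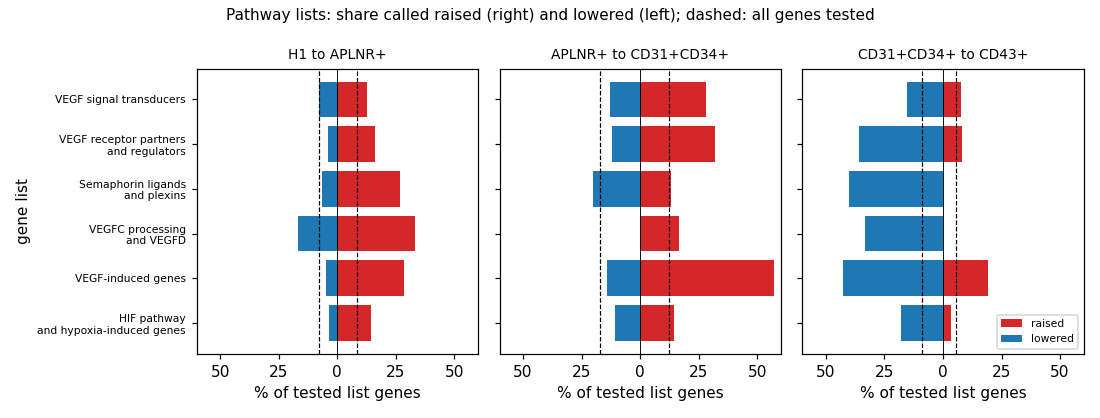
Percent of the tested genes of each list (x axis; members left out) that rose (right of 0) or fell (left of 0) at the 3 steps, with dashed lines at the percent of all tested genes. VEGF-induced genes have 12 of 21 raised at the second step and 9 of 21 lowered at the third, and semaphorins and plexins have 0 raised and 6 of 15 lowered at the third.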

How the data were processed

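RNA-seq libraries of undifferentiated H1 cells and of APLNR+, CD31+CD34+ and CD43+ cells (3 each) were grouped by their titles. The FPKM values came as the authors deposited them, in 1 table whose columns are the libraries. Per the submitters' processing notes BWA, Bowtie and RSEM were used with hg19; their versions and roles are not given in the sources used here. Of 58366 lines, 1 held text and was left out, and 345 symbols with more than 1 line were represented by their most abundant line.

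FPKM are not counts, so log2(FPKM + 1) values of genes reaching 1 FPKM in at least 3 libraries were fitted with limma 3.58.1 (R 4.3.3; 4 populations in a single model, eBayes with trend), and p-values were adjusted by Benjamini-Hochberg over 14840 genes per comparison. Genes were called at an adjusted p under 0.05 and at least 2-fold. Shares were tested by exact two-sided permutation, where 3 against 3 libraries cannot give a p under 0.1. The number of libraries limits precision, and depth is known only as relative values. On simulated data for H1 against APLNR+ libraries (14840 genes) the fit was tested: 197 of 200 altered genes were called, 2 others were, and 0 had the wrong sign. The altered genes were not low, their changes were well past 2-fold, and the noise was independent between libraries. The simulation therefore does not cover changes near the limit, low genes or differences between replicates.

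The 9 members, the gene lists (written from general knowledge) and the tests were chosen with earlier results of these data known. Beside the members, the text names from each list the called gene with the largest rise and fall at each step, among genes whose populations do not overlap and whose higher mean is at least 5 FPKM, and the 3 genes most correlated with each member among those with a highest population mean of at least 5 FPKM; the sorting markers and VEGFD are named as well. Promoter letters are from RefSeq (GRCh38.p14), a build other than that of the table. Alternatives were a pseudocount of 0.1, no filter or a mean of at least 5 FPKM, 3 other scalings, a replicate block, eBayes without trend, fits of the compared populations alone, minimum changes of 1.5-fold, 4-fold or none, replicates 2 and 3 alone, and leaving out each library. All other steps used Python 3.11.15 (scipy 1.17.1, pandas 2.3.3, numpy 2.4.6, matplotlib 3.10.9).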

Additional observations from a re-analysis of the deposited data

How the results depend on the processing

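Of 1056 recomputed log2 changes of members, 1035 kept their direction and side of the threshold. Many of them could differ only in their p-value. The log2 change is the same with other filters, the replicate block, eBayes without trend or the compared populations alone. It is also the same when a library outside the compared pair is left out. Part of this agreement was therefore fixed in advance. The 15 that turned sign were differences never called and near 0. VEGFA from H1 to CD43+ cells (-0.01) was 0.14 with quantile normalization, 0.045 with scaling to the sum without small RNA genes, 0.0077 with replicates 2 and 3 alone, and -0.082 to 0.064 on leaving out a library. VEGFB from CD31+CD34+ to CD43+ cells (0.11) was -0.015 with that sum scaling and -0.00033 to 0.22 on leaving out a library. PGF from APLNR+ to CD31+CD34+ cells (0.00) was -0.079 with upper-quartile scaling, -0.019 with the sum scaling and -0.084 to 0.13 on leaving out a library. NRP1 from APLNR+ to CD43+ cells (-0.04) was 0.042 with replicates 2 and 3 alone and -0.12 to 0.10 on leaving out a library.

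Members called numbered 5, 5 and 6 at the 3 steps and 5 from H1 to CD43+ cells. With no minimum change the first step had 8, and with a 4-fold minimum the counts were 2, 3, 1 and 2. On leaving out a library the first step had 4 to 5 and the others kept 5, 6 and 5. Pathway list genes called numbered 33, 55, 47 and 63. With no minimum they numbered 78, 104, 99 and 109, with a 4-fold minimum 14, 24, 12 and 31, and with a 1.5-fold minimum 55 at the first and 76 at the third step, since the limit itself sets these counts. On leaving out a library they were 33 to 37, 54 to 59, 43 to 47 and 59 to 63. With replicates 2 and 3 alone the change in share from H1 to APLNR+ cells was 14.2 percentage points for VEGFB (10.5 with all) and 28.1 for KDR (29.9), and that of FLT1 from APLNR+ to CD31+CD34+ cells was 0.665 (2.84); the cause was not tested.

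Scaling to the sum without small RNA genes moved the median change of all genes from -0.12 to 0.04 at the first step and the raised share of calls from 52.1% to 66.0%. It moved that median from -0.07 to -0.18 between APLNR+ and CD43+ cells, and quantile normalization moved it from -0.10 to 0.02 between H1 and CD43+ cells. No member call changed with any of the 3 scalings. Whether replicate numbers pair the libraries is not given by the labels. Same-numbered libraries correlated at -0.02 to 0.43 and others at -0.40 to 0.29, and 7 of 12 correlated best with their own number. Replicate 1 libraries stood apart: they correlated with each other at 0.20 to 0.43 and with replicates 2 and 3 of other populations at -0.40 to -0.06. Among replicates 2 and 3, same-numbered libraries (-0.02 to 0.27) and others (0.02 to 0.29) overlapped. What sets replicate 1 apart was not tested. All same-number correlations were over 0.1 in 2 of 6 pairs of populations (H1 with CD43+ and CD31+CD34+ with CD43+ cells) and not in the other 4. With the replicate block 1236 genes rose and 1133 fell at the first step (1232 and 1131 without it), members called were the same 5, 5, 6 and 5, and the adjusted p of KDR at that step was 4.17e-08 in place of 0.000196. Low values, VEGFC and VEGFD above all, are limited by depth, which is lowest in replicate 1.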
